A study of Mus musculus with 39 samples.

Results

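The comparison set 5 liver samples at day 28 of phenobarbital treatment against 5 at day 7, across all measured genes. These 10 of the 39 arrays in the series were chosen by their labels alone, which give treatment and duration. Each array profiled whole liver extract of a male B6C3F1/Crl mouse (C57BL/6 male x C3H/He female) on an Affymetrix mouse GeneChip with 45101 probe sets. The mice arrived at 29 to 32 days of age and had 5 days to acclimatise. The treated mice then had phenobarbital at 0.05% (w/v) in drinking water, and the controls carry the label control with no further agent named. The 10 control livers of the same days, 5 at day 7 and 5 at day 28, served as background. Mice sampled at day 28 were older than those sampled at day 7, in both arms, so treatment time and age cannot be told apart within an arm.

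Phenobarbital is a barbiturate that activates the nuclear receptor CAR (gene Nr1i3) in hepatocytes. CAR switches on cytochrome P450, conjugation and transport genes, and in mice it also drives a wave of hepatocyte division soon after exposure begins and promotes liver tumours on long exposure. Over the same weeks a young male mouse passes through puberty, when pulsed growth hormone raises male-biased liver genes and lowers female-biased ones, and liver growth slows.

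Values are deposited log2 signals, on which a difference of 1 is a 2-fold change, and the number of arrays limits their precision. A gene was called higher or lower at day 28 when its adjusted p, from limma with Benjamini-Hochberg adjustment over the 12580 genes tested, was under 0.05. SD is over 5 arrays unless stated and SE is the standard error of the fitted change. The labels do not say whether the arrays of a group come from separate animals, and p-values then describe only how far these samples differ, which may be technical. In a whole liver extract, fewer cells of a type and less RNA per cell cannot be told apart. Signals of different probe sets are not compared with each other. The files used here give no detection call. For 13 named genes, among them Rian, Nebl, Nox4, Sult2a2 and Sult3a1, the mean of 1 day lay below the median of every treated array (5.71 to 5.77), so their difference depends on dim signals and no fold is given.

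Pairs of treated arrays correlated at 0.990 to 0.996 within day 7 and 0.992 to 0.996 within day 28 across all probe sets. The spike-in controls averaged 10.8 ± 0.091 at day 7 and 10.9 ± 0.080 at day 28 in treated arrays (exact permutation test, 2-sided, n = 5 and 5, p = 0.802, adjusted p = 0.802 over 6 tests). The difference between 3′ and 5′ probe sets of the Actb and Gapdh controls, a measure of RNA integrity, was 0.437 ± 0.037 and 0.461 ± 0.037 (exact permutation p = 0.310, adjusted p = 0.536, n = 5 and 5). In control arrays both measures rose, the spike-ins from 9.96 ± 0.287 to 11.2 ± 0.236 and the 3′ to 5′ difference from 0.465 ± 0.038 to 0.663 ± 0.108, with no overlap of arrays (exact permutation p = 0.00794, adjusted p = 0.0238 for each, n = 5 and 5). The control change and its difference from the treated change therefore move with array measures that the treated change does not move with, and their part in those results was not tested beyond the fits with each measure as a covariate. The 9 tested hepatocyte markers gave array means of 14.36 to 14.39 at day 7 and 14.33 to 14.39 at day 28.

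Single arrays stood apart from the others of their group. The replicate numbers used here follow the order of the samples in the series and are not given by the labels. Day 7 replicate 3 was high for neutrophil markers, with a list mean of 9.22 against 6.14 to 6.56 on the other 4 arrays, and for MHC class II genes, with 10.32 against 8.24 to 8.42. Day 7 replicates 2 and 4 were high for skeletal muscle markers, at 9.70 and 8.52 against 6.04 to 6.25. Day 28 replicate 1 was high for heat shock genes, at 10.75 against 9.61 to 9.94. Day 7 replicates 1 and 2 lay nearer to the day 28 arrays than replicates 3 to 5 did for male-biased genes, with list means of 10.83 and 10.65 against 9.55 to 9.88.

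Treated livers changed at 2695 of 12580 genes between day 7 and day 28, 21.4% of those tested. Of these, 1196 were higher at day 28 (9.51%) and 1499 were lower (11.9%). The changes were mostly small. Only 60 genes were called and at least 2-fold higher (0.477%), and 130 were called and at least 2-fold lower (1.03%). The median change over all genes was -0.01, and the median size regardless of direction was 0.111. The 5 day 28 arrays all lay above the 5 day 7 arrays at 790 genes (6.28%) and all below them at 1008 (8.01%). Genes both called and separate numbered 687 higher (5.46%) and 885 lower (7.03%).

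The largest rises were in a male-biased oxidase gene (Nox4), in long noncoding RNAs of an imprinted cluster (Rian, Meg3), in the actin-binding protein gene Nebl, in the cytochrome P450 gene Cyp2c65 and in heat shock genes. The 5 largest falls were in the sulfotransferase genes Sult2a2 and Sult3a1, the female-biased oxidase gene Hao2 and the organic anion transporter genes Slc22a26 and Slc22a29. Among the gene lists examined, interferon response genes, Kupffer cell markers, collagens, DNA replication and mitosis genes had most of their called members lower. Heat shock and male-biased genes had called members in the higher direction only.

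**Figure D1:**
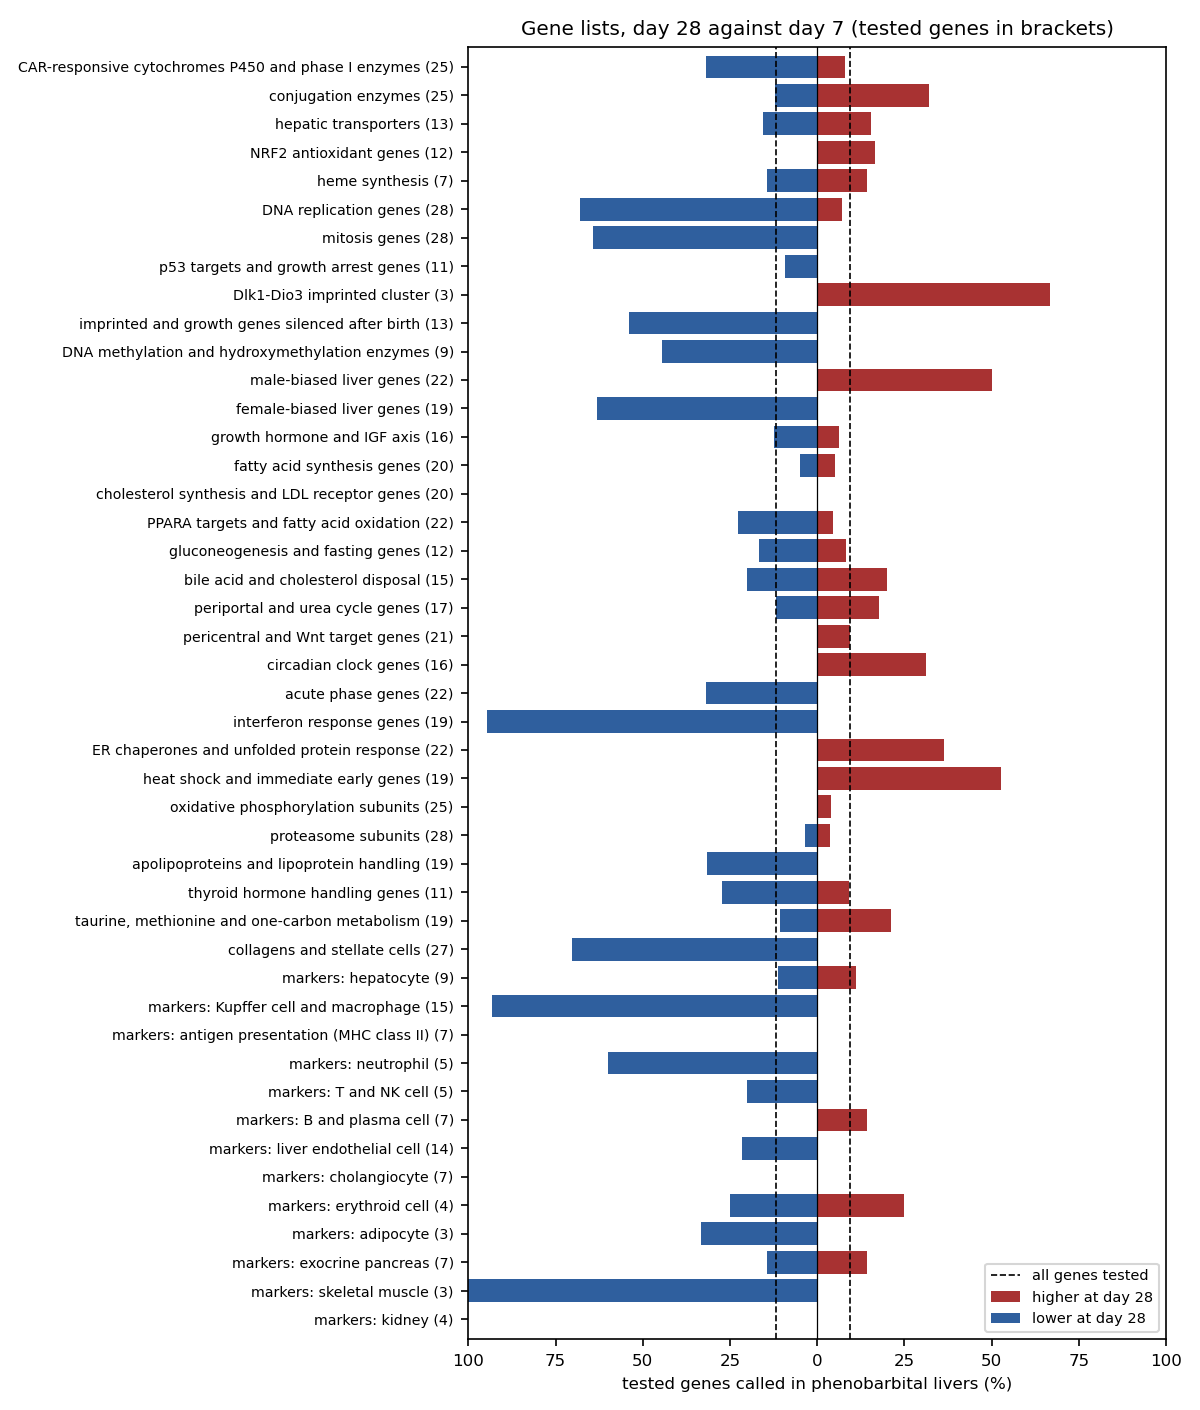
Share of the tested genes of each list that was called lower (left, blue) or higher (right, red) at day 28 against day 7 in phenobarbital-treated livers, with the share over all 12580 genes as dashed lines (11.9% lower, 9.51% higher). Interferon response genes reach 18 of 19 lower and Kupffer cell markers 14 of 15, while the called heat shock and male-biased genes all lie on the higher side.

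The classic phenobarbital-induced enzymes differed little between day 7 and day 28. Cyp2b10, the standard target of CAR, read 13.72, 13.84, 13.81, 13.91 and 13.92 at day 7 and 13.67, 13.68, 13.73, 13.66 and 13.65 at day 28. Its change was -0.16 (SE 0.21, adjusted p = 0.655), and the groups overlap between 13.72 and 13.73. Fitted on the 10 treated arrays alone it was called lower (adjusted p = 0.0154). Cyp3a11, a broad drug oxidase, changed by 0.01 (SE 0.0336, adjusted p = 0.837), and Cyp2c55 by -0.10 (SE 0.221, adjusted p = 0.822). These signals lie near the top of the deposited range, which ends at 15.12, and whether that compresses differences was not tested.

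Other members of the drug-handling lists did move. Of 25 tested cytochromes P450 and phase I enzymes, 2 rose and 8 fell, with a median change of -0.10. The share called was 40%, against 21.4% of all genes. Since 9.51% of all genes rose and 11.9% fell, the share of rises is near that of all genes. Cyp2c65 rose and Cyp2c39, another cytochrome P450 of the 2c family, fell. Cyp2c39 read 8.86, 9.37, 10.14, 10.12 and 10.30 at day 7 and 7.23, 8.04, 7.93, 7.79 and 7.39 at day 28, a fall of every day 28 array below every day 7 array (-2.08, SE 0.283, adjusted p = 1.95e-06). The carbonyl reductase gene Cbr1 fell by 0.42 (SE 0.0915, adjusted p = 0.000856), and the female-biased P450 gene Cyp2b13 fell by 2.43 with overlapping arrays (SE 0.559, adjusted p = 0.00165). The rises were 1 without any 1 of 7 of the 10 arrays, Fmo5 being the second riser. The count of falls was 5 without day 7 replicates 2 and 4 and 4 without day 7 replicate 3 and day 28 replicate 1.

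Of 25 tested conjugation enzymes 8 rose and 3 fell (median 0.08), where 9.51% of all genes rose and 11.9% fell, so the share of falls is near that of all genes. Gsta2, a glutathione S-transferase, read 11.27, 11.36, 10.64, 11.80 and 11.31 at day 7 and 12.59, 12.65, 12.70, 12.54 and 12.55 at day 28 (1.33, SE 0.181, adjusted p = 1.97e-06). All day 28 arrays lie above all day 7 arrays, and Gsta2 rose in controls too, by 2.19. Gsta4 rose by 0.63 (SE 0.121, adjusted p = 0.000233). Ugdh, which makes the UDP-glucuronic acid used by glucuronosyltransferases, read 11.84, 11.89, 12.09, 12.03 and 12.08 at day 7 and 12.82, 12.62, 12.64, 12.67 and 12.64 at day 28, a rise of 0.69 (SE 0.0785, adjusted p = 7.35e-08) with separate groups. The 8 rises became 4 without day 7 replicate 3 and day 28 replicate 1, and the 3 falls became 1 without day 7 replicate 4.

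Sulfotransferase genes gave the largest falls of all genes. Sult3a1 read 8.21, 9.72, 11.69, 11.76 and 11.91 at day 7 and 4.80, 6.11, 6.13, 5.23 and 5.58 at day 28. The change was -5.09 (SE 0.562, adjusted p = 4.16e-08), down to a mean below the array median, and every day 28 array lies below every day 7 array. Sult2a2 read 5.22, 5.39, 13.27, 13.34 and 12.14 at day 7 and 4.25, 3.91, 4.71, 4.20 and 4.87 at day 28 (-5.48, SE 1.25, adjusted p = 0.00156). Its day 7 arrays fall into a high set, replicates 3 to 5, and a low set, replicates 1 and 2, so that its mean describes neither. In controls the changes were -0.77 for Sult3a1 and -0.17 for Sult2a2, neither called. Genes of the Sult2a family are close copies of each other, so the Sult2a2 probe set may also read its neighbours. With the mean of male-biased genes as a covariate, which itself rose between the days, the Sult2a2 change was no longer called (-0.77, adjusted p = 0.677).

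Transporters and support enzymes were called at shares on either side of the 21.4% of all genes. The shares were 30.8% of hepatic transporters, 16.7% of NRF2 antioxidant genes and 28.6% of heme synthesis genes. Of 13 hepatic transporters 2 rose and 2 fell, and either count was 1 without day 7 replicate 3 or 4; the count of falls was also 1 without day 7 replicate 5 or day 28 replicate 1 or 5. Slc10a1, the main bile acid uptake carrier, fell by 0.26 (SE 0.044, adjusted p = 6.03e-05, separate arrays), and Abcg2, an efflux pump, rose by 0.37 (SE 0.0939, adjusted p = 0.00437, separate arrays; adjusted p = 0.0596 without day 7 replicate 3 and day 28 replicate 1). Of 12 NRF2 antioxidant genes 2 rose and none fell, among them Txnrd1, a thioredoxin reductase (0.32, SE 0.0583, adjusted p = 0.000107), which was the single riser without day 7 replicate 2 or 3, and 1 fell without day 7 replicate 1 or day 28 replicate 3. Of 7 heme synthesis genes 1 rose and 1 fell, and no fall was called without any 1 of 7 arrays (all but day 7 replicate 1 and day 28 replicates 2 and 3). The rise was absent without day 7 replicate 3 or 5, and 2 rose without day 7 replicate 4. The receptor gene Nr1i3 rose by 0.33 (SE 0.118, adjusted p = 0.044), a call lost without any 1 of 6 of the 10 arrays, the highest adjusted p being 0.186 without day 7 replicate 3.

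A small set of genes rose strongly in treated livers, with control changes that were small or not called. Rian and Meg3 are long noncoding RNAs transcribed from the maternal copy of the imprinted Dlk1-Dio3 region. Rian read 5.75, 5.42, 4.29, 5.10 and 4.75 at day 7 and 8.48, 8.28, 8.25, 7.34 and 8.54 at day 28, a rise of 3.11 (SE 0.273, adjusted p = 4.38e-10) from a day 7 mean below the array median. All day 28 arrays stand above all day 7 arrays, and replicate 4 is the lowest of them. Meg3 read 8.51, 8.91, 7.89, 8.26 and 8.10 at day 7 and 11.16, 10.99, 10.94, 10.62 and 11.12 at day 28, a 6.21-fold rise (2.63, SE 0.189, adjusted p = 2.32e-12) with separate groups. Counting these, 9 of the 11 Meg3 probe sets (changes from 0.06 to 2.95) and 2 of the 4 Rian probe sets were called higher. Mirg, another transcript of the cluster, changed by 0.23 (adjusted p = 0.0626) and was not called. These were the 3 of 6 listed genes of the region that were tested.

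Nebl encodes nebulette, an actin-binding protein best known from heart muscle. It read 5.29, 4.77, 4.41, 5.26 and 4.73 at day 7 and 8.06, 8.01, 8.19, 7.47 and 8.24 at day 28. The rise was 3.11 (SE 0.158, adjusted p = 1.61e-16) with no overlap, from a day 7 level below the array median, and was seen with 1 of its 3 probe sets. Kcnk1, a potassium channel subunit, read 6.16, 6.19, 5.96, 5.55 and 5.70 at day 7 and 8.30, 8.28, 7.79, 7.79 and 7.97 at day 28 (2.12, SE 0.254, adjusted p = 2.10e-07). Both of its probe sets were called and its groups are separate.

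Cyp2c65 encodes a cytochrome P450 of the 2c family that belongs to the drug-inducible set. It read 9.53, 8.75, 6.04, 6.92 and 7.43 at day 7 and 10.72, 10.81, 10.65, 10.72 and 10.91 at day 28 (3.03, SE 0.326, adjusted p = 2.70e-08). The day 7 arrays spread widely (SD 1.40) and the day 28 arrays hardly (SD 0.10), and the groups are separate. In controls, Rian changed by 0.34, Nebl by 0.12, Kcnk1 by 0.33 and Cyp2c65 by -0.04, none of them called, while Meg3 rose by 0.67. The treated change exceeded the control change by 2.78 for Rian (adjusted p = 8.51e-05), 1.97 for Meg3 (7.37e-05), 2.99 for Nebl (2.80e-11), 1.79 for Kcnk1 (0.00302) and 3.06 for Cyp2c65 (0.000317). Of these differences only that of Nebl was still called once the spike-in mean was a covariate, whereas the treated rises of all 5 genes were called in every setting run.

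**Figure D2:**
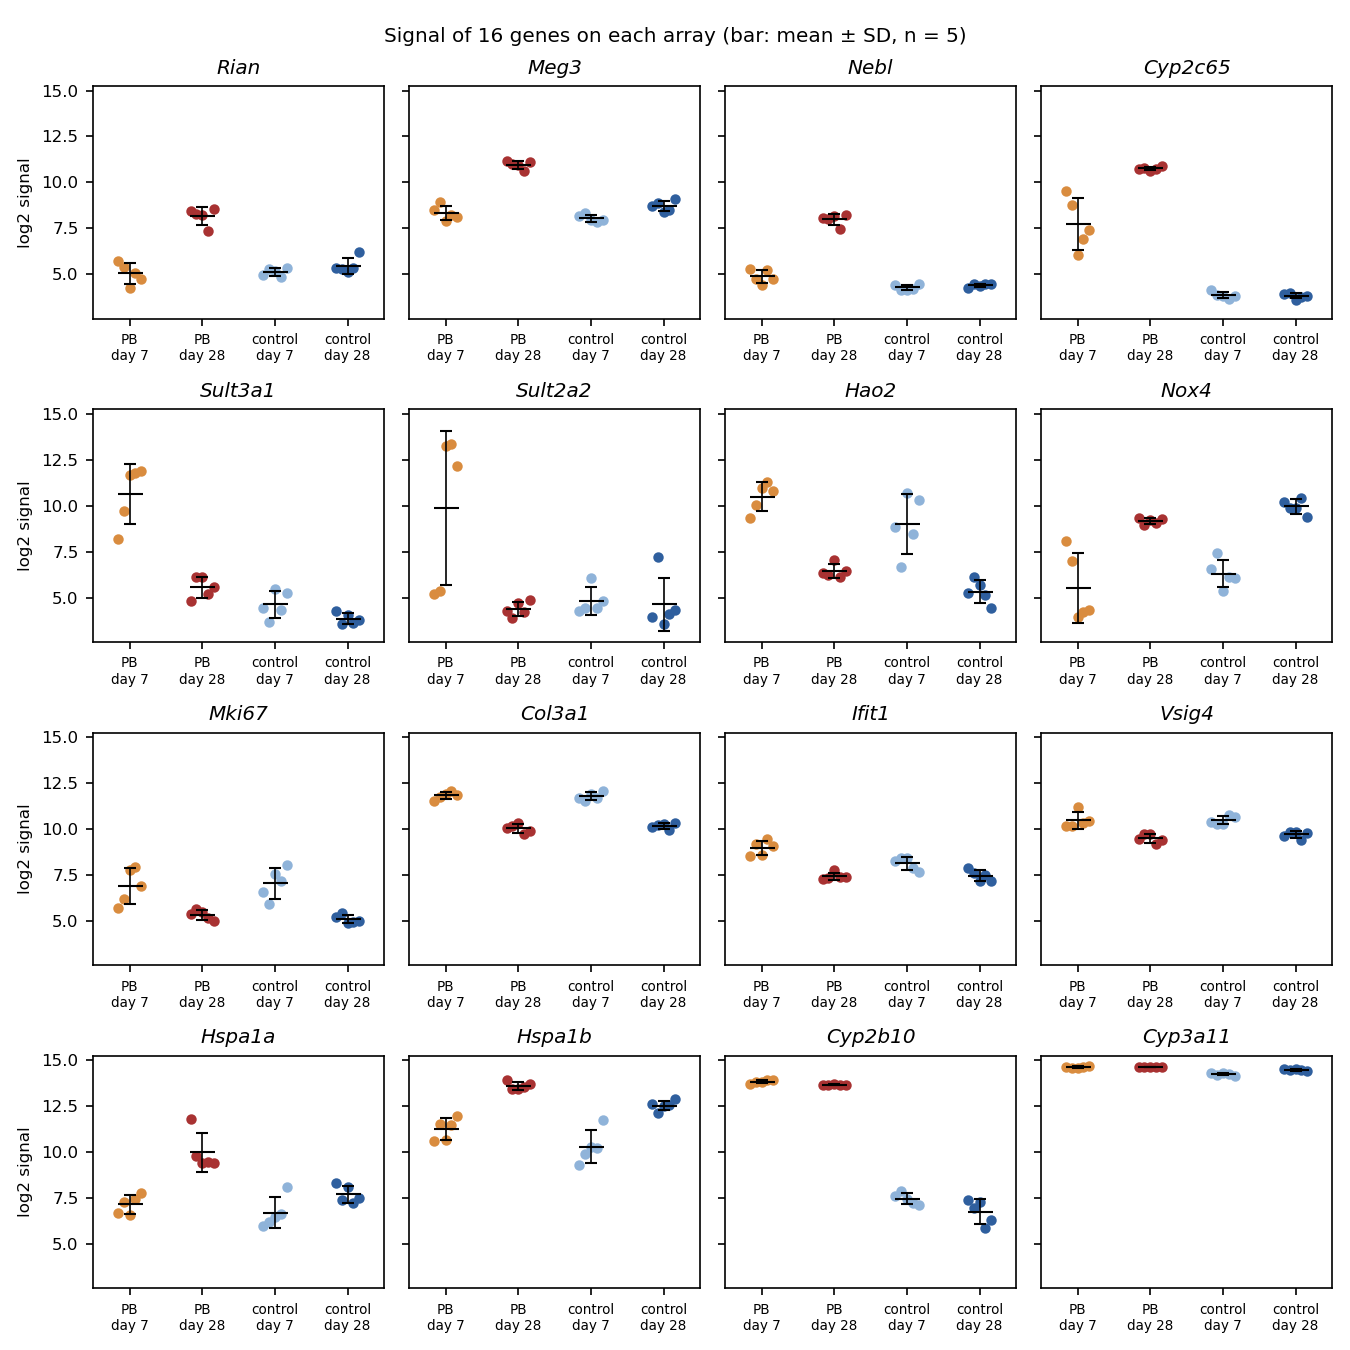
Log2 signal of 16 genes on each of 20 arrays (points), with the mean and SD over 5 arrays (bars), in phenobarbital (PB) and control livers at days 7 and 28. Rian, Meg3, Nebl and Cyp2c65 are high in day 28 PB livers, Sult3a1 in day 7 PB livers, and Cyp2b10 is high at both PB days.

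Male-biased genes were higher and female-biased genes lower at day 28. Of 22 male-biased genes tested 11 rose and none fell (median 0.56), and of 19 female-biased genes 12 fell and none rose (median -0.93). Over all genes 9.51% rose and 11.9% fell. In controls 7 male-biased genes rose and 1 fell (median 0.24) and 9 female-biased genes fell (median -0.38), against 19.8% of all genes higher and 26.5% lower there. Nox4, an NADPH oxidase gene, read 8.07, 7.01, 3.95, 4.20 and 4.32 at day 7 and 9.31, 8.96, 9.20, 9.08 and 9.30 at day 28. Its rise of 3.66 was the largest of all (SE 0.536, adjusted p = 6.48e-06, separate groups) and was 3.65 in controls. C6, a complement component, rose by 2.42 (SE 0.308, adjusted p = 7.13e-07), Elovl3, a fatty acid elongase, by 2.20 (SE 0.566, adjusted p = 0.0045) and Cyp7b1, an oxysterol hydroxylase, by 1.47 (SE 0.314, adjusted p = 0.000756), each with separate groups. Without day 7 replicate 3 and day 28 replicate 1 together Elovl3 was not called (adjusted p = 0.0511).

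Hao2, a peroxisomal hydroxyacid oxidase, read 9.32, 10.03, 10.97, 11.31 and 10.82 at day 7 and 6.34, 6.25, 7.08, 6.15 and 6.46 at day 28. This is a 16.4-fold lower mean (-4.04, SE 0.565, adjusted p = 2.96e-06), with -3.66 in controls. Slc22a26 fell by 2.78 (SE 0.426, adjusted p = 1.22e-05), Slc22a29 by 2.63 (SE 0.497, adjusted p = 0.000187) and Slc22a27 by 2.35 (SE 0.442, adjusted p = 0.000173), all with separate groups. These 3 transporter genes are close copies, so their probe sets may share signal. Rtn4, a reticulon of the endoplasmic reticulum, fell by 0.88 (SE 0.109, adjusted p = 5.17e-07).

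The sex-biased genes were uneven within day 7. The female-biased list averaged 7.62, 7.98, 8.91, 9.13 and 8.83 on the 5 day 7 arrays and 6.92 to 7.42 at day 28, so replicates 1 and 2 were nearer to day 28. The male-biased list averaged 10.83, 10.65, 9.78, 9.55 and 9.88 at day 7 and 10.93 to 11.23 at day 28. With the male-biased mean as a covariate 485 genes rose and 384 fell in treated livers, of which 817 were among the 2695 called without it. That mean itself differed between the days without overlap of arrays, which can make any day difference harder to call. What the calls lost in this fit reflect was not tested. The male-biased count was 7 without day 7 replicate 4 and 5 without day 7 replicate 3 and day 28 replicate 1. The genes of both lists respond to growth hormone. Of 16 tested genes of the growth hormone and IGF axis 1 rose and 2 fell. The share called, 18.75%, is near the 21.4% of all genes. Igfbp3, an IGF carrier, read 9.18, 9.16, 9.64, 9.07 and 9.37 at day 7 and 7.76, 7.80, 8.26, 7.28 and 7.72 at day 28 (-1.52, SE 0.138, adjusted p = 7.59e-10, separate groups). Igf1 changed by -0.13 (SE 0.0661, adjusted p = 0.154), while 2 of its other 3 probe sets were called lower, at -0.50 and -0.57. The count of falls on this axis was 1 without day 7 replicate 4 or 5 or day 28 replicate 5, and 4 without day 28 replicate 4, and 2 rose without day 7 replicate 4 or 5 or day 28 replicate 3.

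**Figure D3:**
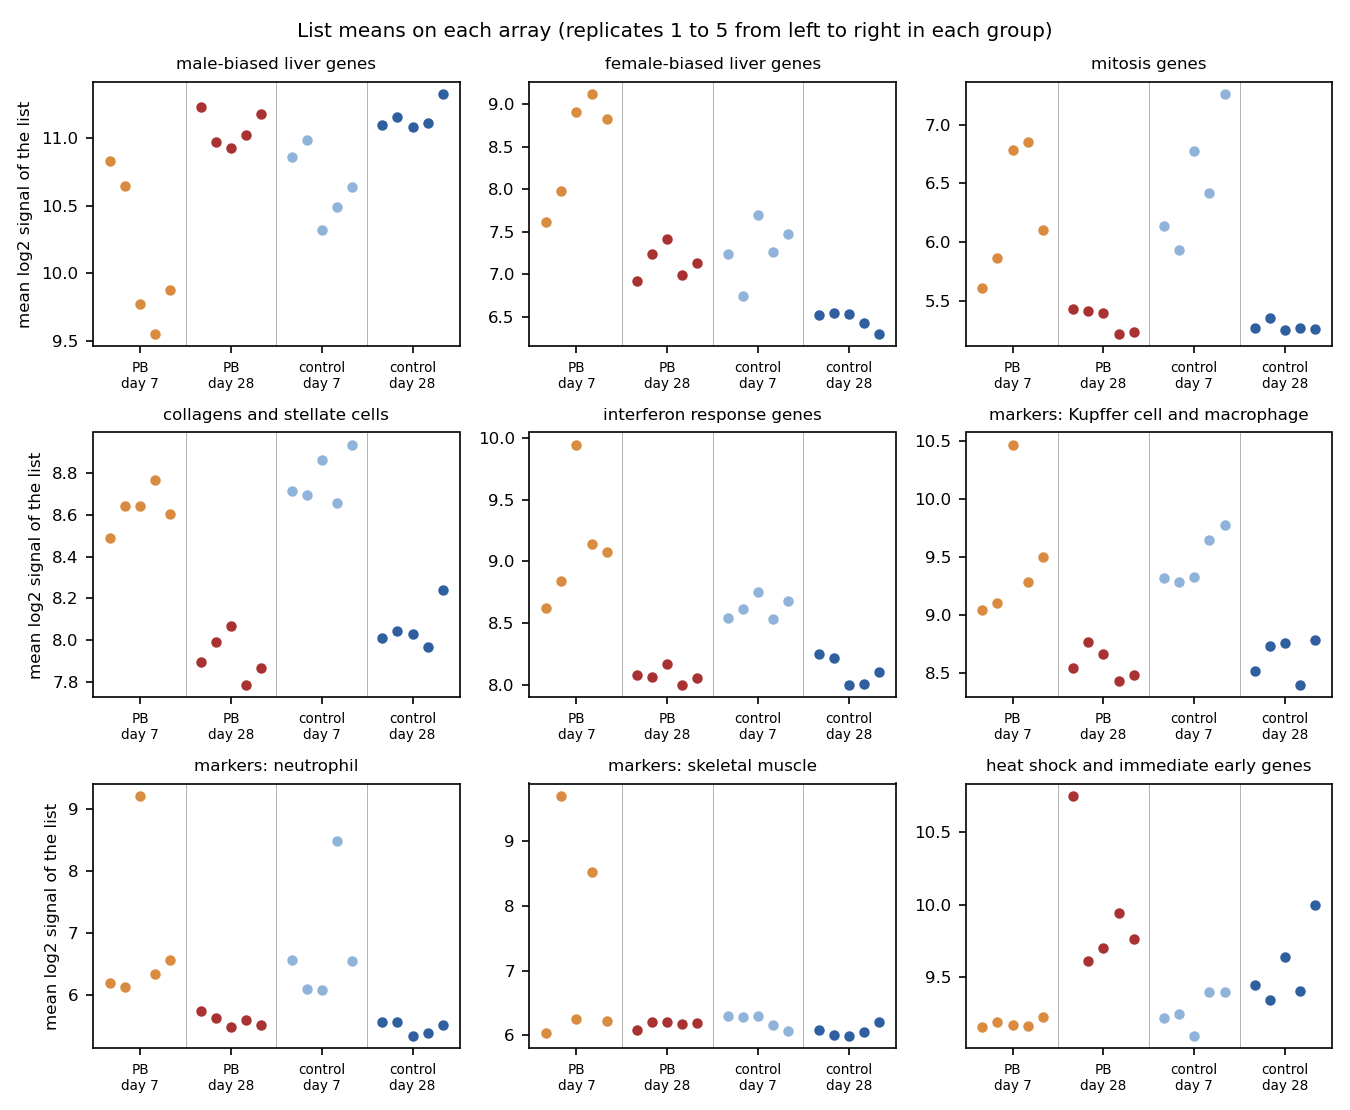
Mean log2 signal of 9 gene lists on each array, replicates 1 to 5 from left to right, in phenobarbital (PB) and control livers at days 7 and 28. Male-biased, female-biased and mitosis means differ among the day 7 PB arrays, and single arrays stand apart for neutrophil, skeletal muscle, Kupffer cell and heat shock genes.

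Cell division genes fell. Of 28 tested DNA replication genes 19 fell and 2 rose (median -0.63), and of 28 mitosis genes 18 fell and none rose (median -0.82). Over all genes 11.9% fell and 9.51% rose. In controls 23 replication and 26 mitosis genes fell (medians -0.59 and -1.14), where 26.5% of all genes fell. Mki67, a marker of dividing cells, read 5.71, 6.18, 7.76, 7.96 and 6.88 at day 7 and 5.36, 5.67, 5.51, 5.14 and 4.99 at day 28 (-1.56, SE 0.366, adjusted p = 0.0019, separate groups). Cdt1, which licenses replication origins, read 7.87, 7.61, 8.68, 9.04 and 8.62 at day 7 and 6.90, 7.13, 6.89, 6.68 and 6.55 at day 28 (-1.53, SE 0.209, adjusted p = 2.08e-06, separate groups). Day 7 replicates 3 and 4 carried the highest mitosis means, 6.78 and 6.86, against 5.61 to 6.10 on the other 3 and 5.21 to 5.43 at day 28. Without either of them 10 mitosis genes were called.

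Spc25, a kinetochore component, fell by 1.62 (SE 0.245, adjusted p = 9.94e-06), Mcm6, of the replicative helicase, by 1.71 (SE 0.28, adjusted p = 3.02e-05) and Cdk1, the mitotic kinase, by 1.45 (SE 0.263, adjusted p = 0.000111), each with separate groups. The replication genes that rose were Mcm10, by 1.29 (SE 0.188, adjusted p = 5.67e-06), which is also on the male-biased list, and Fen1, by 0.28 (not both without day 28 replicate 5). With the male-biased mean as a covariate, which itself rose between the days, 2 mitosis genes were called. Of 11 p53 targets 1 fell and none rose, with 0 to 2 falls without single arrays (2 without day 7 replicate 1, 0 without day 7 replicate 3 or day 28 replicate 2) and 1 rise without day 7 replicate 1, 2 or 4. The share of p53 targets called with all arrays was 9.09%, against 21.4% of all genes. Cdkn1a, a cell cycle inhibitor, changed by -0.25 (SE 0.29, adjusted p = 0.612).

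Genes of early postnatal growth and of the extracellular matrix also fell. Of 13 imprinted and growth genes silenced after birth 7 fell (median -0.53), where 11.9% of all genes fell. Among them were Cd24a (-1.41, SE 0.15, adjusted p = 1.91e-08), Peg3 (-1.24, SE 0.212, adjusted p = 5.14e-05) and the fetal serum protein gene Afp (-1.13, SE 0.267, adjusted p = 0.00205). Of 27 collagen and stellate cell genes 19 fell (median -0.71), all 19 with arrays that do not overlap, against 7.03% of all genes that fell so. In controls 21 of these fell (median -0.66), where 26.5% of all genes fell. Col3a1, a fibrillar collagen, read 11.53, 11.75, 11.92, 12.07 and 11.84 at day 7 and 10.08, 10.15, 10.33, 9.71 and 9.89 at day 28 (-1.79, SE 0.124, adjusted p = 1.21e-12). Col1a2 fell by 1.59 (SE 0.127, adjusted p = 5.09e-11) and Sparc, a matrix glycoprotein, by 1.23 (SE 0.102, adjusted p = 1.13e-10).

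DNA methylation enzymes fell modestly. Of 9 tested 4 fell and none rose (median -0.24), where 11.9% of all genes fell. The 4 falls became 2 without day 7 replicates 2 and 4. In controls 5 fell and 1 rose (median -0.21), where 26.5% of all genes fell and 19.8% rose. No member was called as differing between the arms. Dnmt1, the maintenance methyltransferase, fell by 0.46 (SE 0.0968, adjusted p = 0.0006) and Dnmt3a, a de novo methyltransferase, by 0.45 (SE 0.0926, adjusted p = 0.000539), each with separate groups. Of the other Dnmt3a probe sets, those at -0.43 and -0.50 were called lower and those at -0.31 and 0.02 were not called. Dnmt3b was called lower at -0.42 (SE 0.142, adjusted p = 0.0289), a call lost without day 7 replicate 1 (adjusted p = 0.131) and without 3 of the day 28 arrays. With limma adjusted over all probe sets, neither Dnmt3b probe set was called (adjusted p = 0.055 and 0.128). Tet2 changed by -0.18 (adjusted p = 0.209) and Tet3 by 0.03 (adjusted p = 0.856), and Tet1 was not tested for lack of signal.

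Nearly all interferon response genes fell. Of 19 tested 18 fell, a median change of -1.04, where 11.9% of all genes fell. In controls 12 of 19 fell (median -0.47), where 26.5% of all genes fell. Of the called members 4 are printed with the 250 bases upstream of their start, because 8 of the 13 tested members with a promoter in the RefSeq table hold the interferon-stimulated response element there. The motif searched was GAAANNGAAA on either strand, overlapping matches being joined, and it occurs in 3.46% of 27025 genes and 2.98% of 32851 promoter windows of this length. All 13 of these members were called lower, with or without it. Capitals mark the matches, which are a description of letters and not of binding. Sequences are from RefSeq on GRCm38.p6, 5′ to 3′ on the gene's strand. Ifit1 lies at chr19:34640639-34640888 and Ifit3 at chr19:34583279-34583528, both on the plus strand, and Rsad2 at chr12:26456453-26456702 and Oas1a at chr5:120907526-120907775, both on the minus strand.
Ifit1: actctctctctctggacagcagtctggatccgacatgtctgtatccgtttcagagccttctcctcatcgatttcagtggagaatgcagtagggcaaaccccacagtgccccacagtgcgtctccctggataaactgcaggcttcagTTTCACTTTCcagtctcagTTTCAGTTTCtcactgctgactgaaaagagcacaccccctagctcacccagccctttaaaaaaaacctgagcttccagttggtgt
Ifit3: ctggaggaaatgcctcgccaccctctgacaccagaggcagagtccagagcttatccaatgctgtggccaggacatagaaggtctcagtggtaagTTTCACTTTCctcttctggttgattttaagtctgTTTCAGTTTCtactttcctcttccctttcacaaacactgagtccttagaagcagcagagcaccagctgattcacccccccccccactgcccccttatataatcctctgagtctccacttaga
Rsad2: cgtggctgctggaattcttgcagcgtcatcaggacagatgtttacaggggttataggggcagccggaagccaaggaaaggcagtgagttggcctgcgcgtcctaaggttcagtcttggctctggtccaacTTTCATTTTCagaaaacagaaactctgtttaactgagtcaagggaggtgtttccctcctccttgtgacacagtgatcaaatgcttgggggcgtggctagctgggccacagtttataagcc
Oas1a: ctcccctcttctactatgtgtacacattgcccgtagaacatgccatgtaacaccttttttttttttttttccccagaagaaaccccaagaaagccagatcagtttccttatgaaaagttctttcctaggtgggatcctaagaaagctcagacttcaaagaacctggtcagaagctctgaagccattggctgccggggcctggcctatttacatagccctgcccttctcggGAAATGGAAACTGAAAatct

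All 4 encode antiviral proteins, and all 4 fell. Ifit1 read 8.52, 9.18, 8.58, 9.43 and 9.06 at day 7 and 7.29, 7.35, 7.75, 7.37 and 7.39 at day 28 (-1.52, SE 0.171, adjusted p = 5.44e-08). Ifit3 read 8.65, 9.14, 9.33, 9.21 and 9.26 at day 7 and 8.05, 8.07, 8.31, 8.22 and 8.10 at day 28 (-0.97, SE 0.12, adjusted p = 4.39e-07). Both sets of day 28 arrays lie wholly below day 7. Rsad2 read 10.08, 10.40, 9.80, 10.88 and 10.65 at day 7 and 9.46, 8.67, 9.13, 8.77 and 8.75 at day 28 (-1.41, SE 0.181, adjusted p = 8.52e-07). Oas1a read 8.55, 8.59, 9.96, 8.92 and 8.88 at day 7 and 7.90, 8.12, 8.10, 7.76 and 7.83 at day 28 (-1.04, SE 0.142, adjusted p = 2.08e-06), with day 7 replicate 3 standing high. The groups are again separate for both genes.

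Usp18, a brake on interferon signalling, fell by 1.56 (SE 0.16, adjusted p = 1.02e-08), and Rtp4 and Ifi27l2a fell by 1.19 and 1.37. The list mean was 8.63, 8.84, 9.94, 9.14 and 9.08 on the day 7 arrays and 7.998 to 8.17 at day 28, so replicate 3, which was also high for neutrophil and MHC class II genes, gave the highest value. Without day 7 replicate 3 and day 28 replicate 1, 15 members fell (median -0.78), and with the male-biased mean as a covariate 11 did (median -0.79). The fall exceeded that of controls for 7 of 19 members (5.78% of all genes lower), for example by 0.85 for Ifit1 (adjusted p = 0.0208).

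Markers of Kupffer cells and macrophages mostly fell, where 11.9% of all genes fell. Of 15 Kupffer cell and macrophage markers 14 fell (median -0.88), and 13 did in controls (median -0.90), where 26.5% of all genes fell. Vsig4, a complement receptor of Kupffer cells, read 10.16, 10.15, 11.22, 10.35 and 10.45 at day 7 and 9.45, 9.70, 9.71, 9.17 and 9.41 at day 28 (-0.98, SE 0.133, adjusted p = 1.95e-06, separate groups). Cd5l, C1qb and Clec4f fell by 1.07, 1.09 and 0.87, all with separate groups. The list mean was 10.47 on day 7 replicate 3 against 9.05 to 9.50 on the other day 7 arrays and 8.43 to 8.77 at day 28. Without replicate 3 and day 28 replicate 1, 13 of the 15 fell.

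Of 5 tested neutrophil markers 3 fell, all resting on 1 array. S100a8 read 4.81, 5.02, 10.88, 5.13 and 5.21 at day 7 and 4.40, 4.13, 4.16, 4.44 and 4.01 at day 28, and Lcn2, which hepatocytes also make in inflammation, read 8.48, 7.39, 11.88, 8.92 and 9.36 and then 6.94, 6.87, 6.51, 6.42 and 6.79. Both groups of arrays are separate, but without day 7 replicate 3, none of S100a8 (-0.81, adjusted p = 0.133), S100a9 (-0.74, adjusted p = 0.0783) and Lcn2 (-1.83, adjusted p = 0.0612) was called. Of 22 acute phase genes 7 fell (median -0.19), where 11.9% of all genes fell, and 3 fell without that array. Apcs, serum amyloid P, fell by 0.53 (SE 0.0917, adjusted p = 6.01e-05), and its call was kept in all 25 settings, with changes from -0.64 to -0.43. No MHC class II gene of the 7 tested was called by limma, and 0 had an unadjusted p under 0.05.

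The lists of other cell types were short, and the share called was 21.4% over all genes. It ran from 0% of cholangiocyte and kidney genes to 100% of skeletal muscle genes. Of 14 liver endothelial markers 3 fell, and 1 did without day 7 replicate 3, namely Cdh5, vascular endothelial cadherin (-0.53, SE 0.0746, adjusted p = 3.63e-06). Of 7 B and plasma cell genes 1 rose, the immunoglobulin heavy chain gene Ighm (1.03, SE 0.258, adjusted p = 0.00343, separate groups). Of the 5 T and NK cell genes 1 fell, Ccl5, by 0.79. All 3 tested skeletal muscle markers fell, and none of them was called without day 7 replicate 2 or without replicate 4. Ckm, the muscle creatine kinase, changed by -1.40 with all arrays and by -0.03 without both. No tested cholangiocyte gene of 7 and no kidney gene of 4 was called by limma, and 0 of either had an unadjusted p under 0.05. Of 9 hepatocyte markers 1 rose and 1 fell (2 without day 7 replicate 2), and of 7 exocrine pancreas genes 1 rose and 1 fell, the riser being lost without day 7 replicate 3 or 5. Of 3 adipocyte genes 1 fell, and of 4 erythroid genes 1 rose and 1 fell, the riser being lost without day 7 replicate 3, 4 or 5 or day 28 replicate 2. Fabp4, a fatty acid carrier of adipocytes, fell by 0.76 (SE 0.119, adjusted p = 1.89e-05) and Slc4a1, the red cell anion exchanger, by 0.65 (SE 0.159, adjusted p = 0.00287).

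Heat shock genes rose. Of 19 heat shock and immediate early genes 10 rose and none fell, a median of 0.57, and all 10 encode chaperones or cochaperones. Among all genes 9.51% rose and 11.9% fell. Hspa1a, an inducible chaperone of the HSP70 family, read 6.72, 7.32, 6.57, 7.44 and 7.79 at day 7 and 11.83, 9.79, 9.41, 9.49 and 9.41 at day 28 (2.82, SE 0.497, adjusted p = 7.99e-05). Hspa1b read 10.63, 11.52, 10.68, 11.48 and 11.99 at day 7 and 13.94, 13.41, 13.44, 13.55 and 13.71 at day 28 (2.35, SE 0.318, adjusted p = 1.71e-06). Groups are separate for both, and replicate 1 is the highest day 28 array. Both genes are nearly identical, so their probe sets may share signal.

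Hsph1 rose by 2.01 (SE 0.2, adjusted p = 5.51e-09), Hspb1 by 2.25 (SE 0.367, adjusted p = 3.02e-05) and Dnajb1 by 1.92 (SE 0.291, adjusted p = 1.06e-05). Bag3, an HSP70 cochaperone, read 9.42, 9.72, 9.22, 9.63 and 9.53 at day 7 and 11.95, 11.28, 11.10, 11.06 and 11.69 at day 28 (1.91, SE 0.185, adjusted p = 3.00e-09, separate groups). Without day 28 replicate 1 the median of the list was 0.19. The count was then 9. In controls 6 of 19 rose and 2 fell (median 0.14), where 19.8% of all genes rose and 26.5% fell. Hspa1b rose there by 2.24 and Bag3 by 0.76.

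Only 2 of 14 list members with a promoter in the table hold the heat shock element searched, GAANNTTCNNGAA on either strand, against 0.514% of genes and 0.466% of promoter windows. They are Hspd1 and Hspe1, neighbouring mitochondrial chaperone genes that share 1 promoter and rose by 0.22 and 0.15. The window of Hspe1 is printed as the only one shown that holds this motif, in capitals. It lies at chr1:55087898-55088147 on the plus strand in GRCm38.p6 of RefSeq.
Hspe1: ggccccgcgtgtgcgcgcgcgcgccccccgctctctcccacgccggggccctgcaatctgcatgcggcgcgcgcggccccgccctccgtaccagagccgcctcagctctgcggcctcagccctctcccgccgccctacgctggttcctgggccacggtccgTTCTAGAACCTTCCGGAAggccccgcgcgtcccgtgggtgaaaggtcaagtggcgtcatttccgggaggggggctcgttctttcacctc
Hspd1 read 13.00 to 13.24 at day 7 and 13.21 to 13.43 at day 28 (adjusted p = 0.00201), and Hspe1 read 12.68 to 12.82 and 12.79 to 12.98 (adjusted p = 0.044). Both pairs of groups overlap, and the Hspe1 call was lost without any 1 of 7 of the 10 arrays (highest adjusted p = 0.118, without day 28 replicate 5). The members with the largest rises do not hold these letters in the window.

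Endoplasmic reticulum chaperones rose in part. Of 22 genes 8 rose and none fell (median 0.21), where 9.51% of all genes rose and 11.9% fell. The rises were led by Dnajb9 (1.26, SE 0.167, adjusted p = 1.33e-06), Herpud1 (1.36, SE 0.263, adjusted p = 0.000229) and the stress-induced transcription factor gene Ddit3 (0.96, SE 0.181, adjusted p = 0.000187), each with separate groups. In controls 6 rose and 3 fell (median -0.04), where 19.8% of all genes rose and 26.5% fell. The count of treated rises was 4 without day 7 replicates 2 and 4. Of 16 clock genes 5 rose (median 0.27), against 9.51% of all genes, including Cry1 by 0.81 (SE 0.233, adjusted p = 0.0112). Only 1 rose without day 7 replicate 3, 3 without day 7 replicate 5 and 2 without day 28 replicate 5. Without day 7 replicate 3, Cry1 was at 0.59 (adjusted p = 0.0717). The labels used here give no hour of sampling.

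The share of tested genes called, 21.4% over all genes, varied among metabolic and related lists. Below it were cholesterol synthesis (0%), oxidative phosphorylation (4%), proteasome (7.14%), pericentral and Wnt target (9.52%) and fatty acid synthesis genes (10%). Above it were gluconeogenesis (25%), fatty acid oxidation (27.3%), periportal (29.4%), apolipoprotein (31.6%), taurine and methionine (31.6%), thyroid (36.4%) and bile acid genes (40%). None of 20 cholesterol synthesis genes was called by limma, with 2 at an unadjusted p under 0.05 and 3 called lower without day 7 replicate 1. In fatty acid synthesis, 1 of 20 genes rose and 1 fell (3 falls without day 7 replicate 1 and 2 without day 7 replicate 3). The riser was Mlxipl, the carbohydrate-sensing regulator ChREBP (0.31, SE 0.0762, adjusted p = 0.00305), and the gene that fell was Scd2, a desaturase (-1.10, SE 0.243, adjusted p = 0.0011), both with separate groups. Of 22 genes of fatty acid oxidation 1 rose and 5 fell, the rise being absent without day 7 or day 28 replicate 3. Cyp4a14, a fatty acid hydroxylase, read 6.93, 7.995, 6.93, 9.95 and 10.75 at day 7 and 6.06, 6.37, 5.49, 6.35 and 5.85 at day 28, a separate but uneven fall (-2.49, SE 0.699, adjusted p = 0.00915). Without day 7 replicates 2 and 4 it was -2.18 (adjusted p = 0.0615). The falls of that list were 2 without day 7 replicate 4 or day 28 replicate 1.

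Lpl, lipoprotein lipase, fell by 1.41 (SE 0.146, adjusted p = 1.04e-08), as in controls (-1.22), and 6 of 19 apolipoprotein and lipoprotein genes fell in all, among them Apoa4 by 0.68 (SE 0.135, adjusted p = 0.000318). In bile acid and cholesterol disposal 3 of 15 rose and 3 fell, with Cyp39a1, an oxysterol hydroxylase, at -1.12 (SE 0.225, adjusted p = 0.000392) and Nr1h4, the bile acid receptor FXR, at -0.39 (SE 0.0856, adjusted p = 0.00115). Of 21 pericentral and Wnt target genes 2 rose, and without day 7 replicate 1 another 1 fell. Oat, ornithine aminotransferase, read 12.10, 11.86, 11.62, 12.06 and 11.53 at day 7 and 12.71, 13.01, 12.92, 12.74 and 12.86 at day 28 (1.01, SE 0.0924, adjusted p = 8.57e-10, separate groups). Ctnnb1, beta-catenin, changed by 0.02 (SE 0.042, adjusted p = 0.816). Of 17 periportal genes 3 rose and 2 fell, with 1 rise without day 7 or day 28 replicate 4. Of 12 gluconeogenesis and fasting genes 1 rose and 2 fell, with 0 or 1 falls without any 1 of 7 of the 10 arrays.

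Among 19 genes of taurine, methionine and one-carbon metabolism 4 rose and 2 fell, 1 fall being left without day 7 replicate 3 or 4 or day 28 replicate 1. Of 11 thyroid hormone handling genes 1 rose, the amino acid and hormone carrier Slc16a10 (0.67, SE 0.126, adjusted p = 0.000183), and 3 fell, 1 without day 7 replicate 4. Of 25 oxidative phosphorylation subunits 1 rose, a call absent without any 1 of 8 arrays (all but day 7 replicates 1 and 2), and of 28 proteasome subunits 1 rose and 1 fell, the rise being absent without any 1 of 5 arrays (day 7 replicates 2 and 3, day 28 replicates 1, 4 and 5) and 2 falling without day 7 replicate 2 or day 28 replicate 4. Outside the lists, Nt5e, a cell surface 5′-nucleotidase, fell from 8.84, 9.03, 9.71, 9.73 and 9.90 to 7.29, 7.49, 7.65, 7.10 and 7.11 (-2.12, SE 0.187, adjusted p = 4.74e-10). Mt1, a metallothionein, read 9.95, 9.21, 12.08, 9.67 and 10.96 at day 7 and 8.42, 7.88, 7.96, 9.07 and 7.71 at day 28 (-2.17, SE 0.544, adjusted p = 0.00366). The groups do not overlap for Nt5e or Mt1, but the second Mt1 probe set changed by -0.07 and was not called. Slc25a4, a mitochondrial adenine nucleotide carrier that muscle also expresses, fell by 2.15 (SE 0.261, adjusted p = 2.92e-07, separate groups), with its highest day 7 value of 10.47 on replicate 2, one of the arrays high for muscle genes. Its call was kept in all 25 settings, that without day 7 replicates 2 and 4 among them, with changes from -2.42 to -1.43.

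Set beside the controls, most of the treated change ran the same way. Control livers changed at 5825 genes, 46.3% of those tested, with 2493 higher (19.8%) and 3332 lower (26.5%). Of the 1196 genes that rose in treated livers 756 also rose in controls, 63.2% of the treated and 30.3% of the control rises, and 28 fell there. Of the 1499 that fell, 982 also fell in controls, 65.5% and 29.5% of each, and 20 rose. The remaining 412 and 497 genes were not called in controls.

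**Figure D4:**
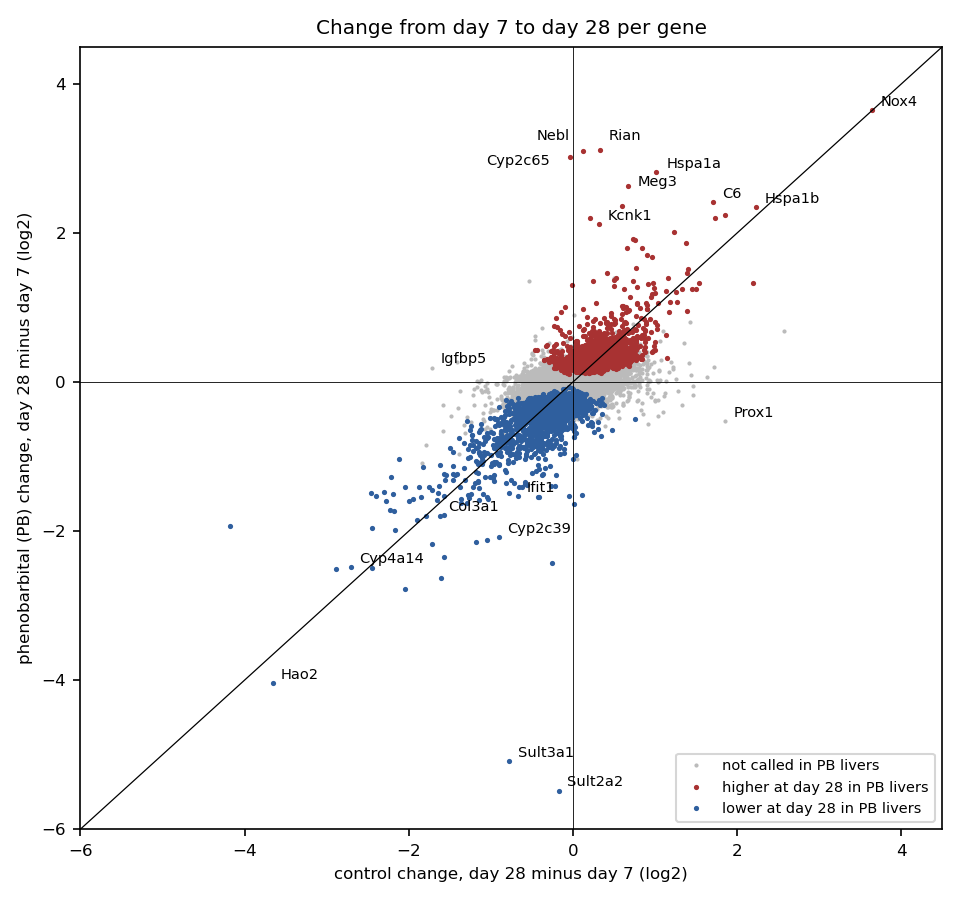
Change from day 7 to day 28 of 12580 genes in control livers (x axis) and phenobarbital-treated livers (y axis), both in log2 units, with genes called in treated livers in colour and the line of equal change. Nox4 and Hao2 lie near the line, while Rian, Nebl, Cyp2c65, Sult3a1 and Sult2a2 lie far from it with control changes between -0.77 and 0.34.

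The change differed between the arms at 1479 genes (11.8%), 752 with a higher (5.98%) and 727 with a lower treated change (5.78%). Of the treated rises 126 exceeded the control change and 40 fell short of it. Of the treated falls 122 had a lower and 18 a higher change than controls, whichever way the controls moved. Besides the late risers, Bag3 rose more by 1.15 (adjusted p = 0.00653) and Sult3a1 fell more by 4.32 (adjusted p = 0.00171). For Igfbp5, an IGF-binding protein, the control arm moved (-1.71) and the treated arm was at 0.20 without a call, and for Prox1, a hepatocyte transcription factor, controls rose by 1.85 while the treated change was -0.52 (adjusted p = 0.232).

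With a spike-in covariate, 1 gene had a higher treated change (Nebl, by 3.28, adjusted p = 4.34e-08) and 0 a lower one (302 and 292 at an unadjusted p under 0.05). With the 3′ to 5′ difference as a covariate 58 and 46 genes differed. The treated change alone was called at 1301 higher and 1593 lower genes with the spike-in covariate and at 1295 and 1561 with the other. Single control arrays moved these counts too: without control day 7 replicate 1 they were 387 higher and 391 lower, and without control day 28 replicate 5 they were 1309 and 1119. In the control arm the spike-in rise and the day cannot be told apart.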

How the data were processed

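RNA of whole liver was measured on Affymetrix arrays, 39 in the series. The deposited log2 values were made by the authors with GCOS, per the submitters' processing notes. The normalization and summarization method is not given in the sources used here, nor is a genome build. Array means lay between 6.22 and 6.26.

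Of 45101 probe sets, 34958 had 1 gene symbol, 932 several and 9211 none in the platform annotation. The probe set with the highest mean stood for each gene. Of 18193 genes, 12580 lay above the array median on at least 4 arrays and were tested. limma 3.58.1 in R 4.3.3 fitted 1 mean per group of treatment and day over all 39 arrays, with a trend in the prior variance and Benjamini-Hochberg adjusted p-values. The scripts used Python 3.11.15 and were tested on simulated data. Figures were drawn with matplotlib 3.10.9.

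Genes are named by rule: the 15 largest called rises and the 15 largest falls with separate arrays, the 8 highest and 8 lowest differences from controls, up to 4 called members of each of 45 lists, and a set of always reported genes. Ifit3, Rsad2, Oas1a, Hspe1, Hspd1, Mirg and Fen1 were named after their values were seen, as were the second riser of the phase I list and the counts of probe sets. The members, lists and rules were chosen with earlier results of these data known. Of 808 genes listed, 719 were on the array and 649 were tested. Alternatives concerned normalization, filter, probe sets, prior, weights, arrays in the fit, covariates and single arrays. Promoter sequences come from RefSeq.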

Additional observations from a re-analysis of the deposited data

Results flagged for a closer look

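Of 422 groups of 5 treated arrays checked for a single outlying array by Dixon's test, 38 held one, where chance gives about 1 in 20. Day 7 replicate 3 was involved more often than any other array. On this array S100a8 read 10.88 against 4.81 to 5.21 on the other 4 arrays, S100a9 11.53, the MHC class II gene H2-Ab1 11.47 against 7.92 to 8.38, and Ccl5 7.66. The same array was high for Vsig4 (11.22), Oas1a (9.96), Tff3 (11.54), Pigr (13.43), Mest (7.64), Stab2 (9.56), Itih4 (14.0) and Apof (14.25), and low for Nfil3 (8.99). Its list means were 9.22 for neutrophil, 10.32 for MHC class II and 6.66 for T and NK cell genes.

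Day 28 replicate 1 was high for Hspa1a (11.83 against 9.41 to 9.79), Dnajb1 (12.25 against 10.33 to 10.51), Csad (9.73), Ugdh (12.82) and Apcs (13.44). Its heat shock list mean was 10.75, and its skeletal muscle mean was low at 6.08. Day 28 replicate 5 was low for Igfbp1 (8.53 against 10.81 to 11.66) and for the means of fasting (9.88), taurine and methionine (11.15) and T and NK cell genes (6.06), and high for Dnajb9 (12.95) and Psph (8.09). Day 28 replicate 4 was low for Rian (7.34 against 8.25 to 8.54) and Top2a (5.17) and high for Cyp2c55 (13.55). Day 28 replicate 3 was high for Ifit1 (7.75), Plagl1 (7.44) and Sdha (12.63). At day 7, replicate 1 was low for Ifit3 (8.65), replicate 2 high for Mirg (6.62) and replicate 5 high for Apoa4 (12.59).

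For 33 of the 166 named genes the treated change differed from the control change by the test of the difference in limma, where 11.8% of all genes did. Some of these genes were named because their difference was among the highest or lowest in this same test. The naming rule therefore set part of the count, which cannot be compared with the share of all genes. Higher treated changes, in log2 units, were 3.06 for Cyp2c65, 2.99 for Nebl, 2.78 for Rian, 1.97 for Meg3, 1.91 for Igfbp5, 1.79 for Kcnk1, 1.77 for Gm10419, 1.69 for Aacs, 1.15 for Bag3, 0.80 for Mcm10, 0.63 for Psph, 0.32 for Mlxipl and 0.25 for Cbs. Lower ones were -5.31 for Sult2a2, -4.32 for Sult3a1, -2.37 for Prox1, -1.64 for Evi5, -1.64 for Malat1, -1.62 for B3galt1, -1.56 for Rpl27a, -1.52 for Pacc1, -1.18 for Cyp2c39 and -1.07 for Nt5e. Smaller ones were -0.86 for Gsta2, -0.85 for Ifit1, -0.78 for Ifi27l2a, -0.74 for Rtp4, -0.56 for Clock, -0.50 for Fabp4, -0.50 for Ifit3, -0.50 for Rtn4, -0.22 for Cyp3a11 and -0.21 for Slc10a1. With a spike-in covariate only that of Nebl was called.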

How the results depend on the processing

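Over the settings run, 71 of the 146 called genes among those named kept their call in all, and 30 lost it only with the male-biased mean as a covariate. With that covariate, which itself rose between the days, the treated change had 485 genes higher and 384 lower. Without single arrays there were 878 to 1267 higher and 1089 to 1548 lower. In fits chosen after seeing the data there were 795 higher without day 7 replicates 2 and 4, and 865 lower without day 7 replicate 3 and day 28 replicate 1. For controls, the stricter filter at the 75th percentile gave 2077 lower, the spike-in covariate 275 higher and 443 lower, and the 3′ to 5′ covariate 1525 and 1832. The difference between the arms had 1629 higher and 1284 lower with array weights, 1 and 0 with the spike-in covariate (302 and 292 at an unadjusted p under 0.05 in limma), 58 and 46 with the 3′ to 5′ covariate, and 387 to 1309 and 391 to 1119 without single arrays. Arrays centred on their median gave a change of 0.0172 in the treated array mean (exact permutation adjusted p = 0.0318). Signs turned without a call for the difference between arms of Pacc1 (0.0924) and Rpl27a (0.00336) with the spike-in covariate. They also turned for the treated change of Abcb1a (0.0486), Alas2 (-0.11), Elovl3 (-0.0865) and Slco1a1 (-0.29) with the male-biased covariate, and of Mylpf (0.0890) without day 7 replicates 2 and 4. The cause was not tested. Under the stricter filter no T and NK cell, skeletal muscle or kidney marker was left to give a median. No paired analysis was possible because the labels give the arrays no replicate number or pairing. Signals near the top or bottom of the scale limit small differences.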
